A study of Homo sapiens with 8 samples.

Results

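The genes described here are 9 genes of the apoptosis machinery that were listed by symbol, out of 63677 genes counted: the death receptor genes TNFRSF10A, TNFRSF10B and FAS, the initiator caspase genes CASP8 and CASP9, the caspase-8 inhibitor gene CFLAR, and the inhibitor of apoptosis (IAP) genes XIAP, BIRC2 and BIRC3. Each symbol matched 1 Ensembl gene. RNA was sequenced from JJN3 and H929, human multiple myeloma (MM) lines of malignant plasma cells, cultured for 24 h in DMSO, the vehicle, or in 50 nM of THZ1, which binds and inhibits the transcriptional kinase CDK7 covalently. There were 2 libraries per line and treatment, 8 in all, with 17476443 to 19194371 counts on genes each. The labels do not say whether libraries of a group came from separate cultures, so p-values measure the spread between these libraries, which may be technical.

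Cells can be driven into apoptosis from outside or from within. A ligand of the TNF family that binds a death receptor draws the adaptor FADD and procaspase-8 into a complex, where caspase-8 is activated, and CFLAR (c-FLIP), a caspase-8-like protein that lacks its full activity, competes for the place. From within, cytochrome c released by mitochondria assembles with APAF1 and activates caspase-9. XIAP binds and blocks caspases 3, 7 and 9, while BIRC2 and BIRC3 (cIAP1 and cIAP2) are ubiquitin ligases at TNF receptors that favour survival signalling through NF-kB, and BIRC3 is itself a known NF-kB target. In myeloma the TNFRSF10A and TNFRSF10B receptors have been studied as drug targets, and deletions at the BIRC2 and BIRC3 locus have been described.

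The libraries labelled H929 DMSO and H929 THZ1 differed widely in some translocation partner and light chain genes. FGFR3, the gene that t(4;14) activates and that is known to be active in H929, had only 45 and 285 counts under the label H929 DMSO against 14117 and 13411 in those labelled H929 THZ1, and 0 to 2 in the JJN3 libraries. MAF had 18006 and 16310 counts against 2729 and 2942, and the light chain gene IGLC3 had 24879 and 22803 against 3 and 2. Not all such markers went this way. ITGB7 had 14795 and 14207 counts against 76538 and 72695, opposite to MAF. CCND1 was nearly alike, with 1766 and 1806 against 1540 and 1566. The paper reported less MAF RNA in H929 after a lower dose of THZ1, measured by PCR. The second library labelled H929 DMSO stood apart from the first, with 174 against 2 counts of SLAMF7 and 27 against 0 of IGLL5, genes that had 1382 counts or more in both libraries labelled H929 THZ1. Treatment and the source of the cells cannot be told apart in these 4 libraries, so their values are given as differences between labels. Each of the 9 plasma cell markers had counts above 0 in every group, but CD79A had only 2 to 9 in the JJN3 libraries. Markers of T cells, monocytes, B cells and erythroid cells summed to 35.9 CPM (counts scaled to the library total) or less per library and list. The highest sum was that of the T cell list in the libraries labelled H929 THZ1, where CD3E had 640 and 650 counts and CD3D 0.

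Levels below are CPM normalised by TMM over the 8 libraries. This scaling, also used in the tests, sets the bulk of genes near no change. A rise or fall is therefore relative to the other genes, and the amount of RNA per cell cannot be read from it. Genes were tested with edgeR's quasi-likelihood test, and a gene was called lower or higher where its Benjamini-Hochberg adjusted p was under 0.05 and its log2 fold change lay beyond 0.5. In JJN3, 3 of the 9 genes rose after THZ1 (CASP8, BIRC2 and CASP9) and 1 fell (BIRC3), where 20.6% of the 13984 genes tested rose and 21.3% fell. The median log2 fold change of the 9 genes was -0.06, against 0.00 for all genes tested. All 9 passed the filter on low counts in every comparison. Between the H929 labels, BIRC2, XIAP and TNFRSF10B were higher with THZ1 and BIRC3 and FAS were lower, 3 and 2 of the 9 genes, where 33.1% and 32.6% of 14863 genes were higher and lower. The median of the 9 genes was 0.40 there, against 0.01 for all genes tested. BIRC2 and BIRC3 were called in the same direction in both comparisons. Read against those shares of all genes, counts of 4 and 5 called among 9 genes do not set them apart from the rest. In RNA from whole cultures, fewer cells that express a gene and less RNA of it per cell cannot be told apart.

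**Figure D1:**
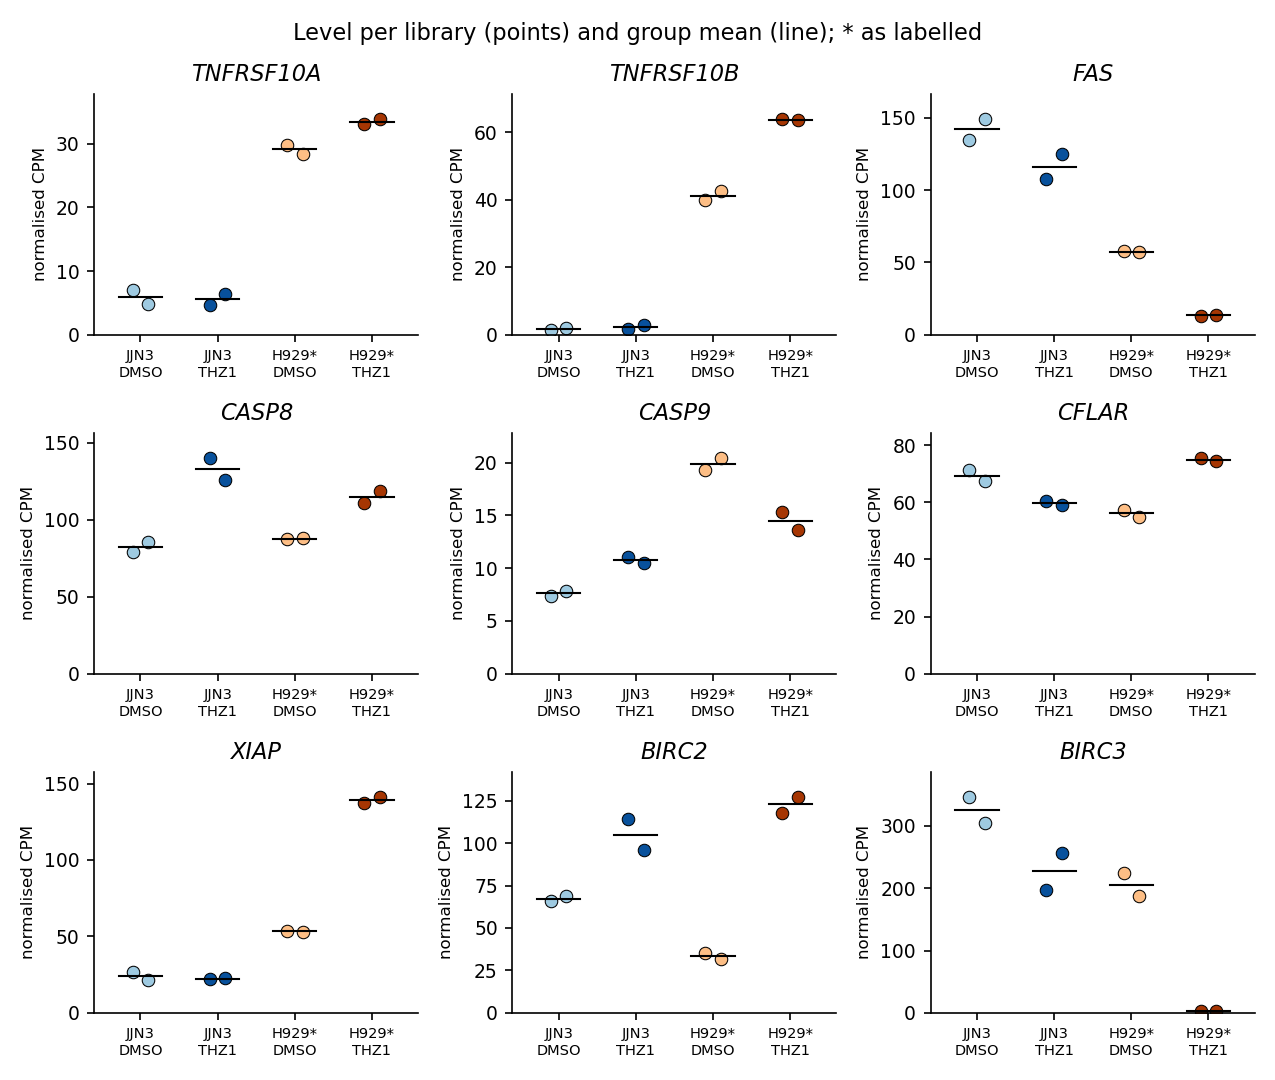
The normalised level of the 9 genes in CPM (linear axes from 0) is plotted for each of the 8 libraries as a point, with the group mean as a line, for JJN3 and for the libraries as labelled H929. BIRC3 is near the axis in the libraries labelled H929 THZ1 (2.68 and 2.11 CPM), and TNFRSF10B is near it in all 4 JJN3 libraries (1.4 to 2.89 CPM).

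The receptors stand first in the pathway, and with DMSO the TRAIL receptors differed most of the 9 genes between JJN3 and the libraries labelled H929. TNFRSF10A and TNFRSF10B encode the receptors DR4 and DR5 of the ligand TRAIL and lie 121420 bp apart on the minus strand of chromosome 8 (GRCh37, 23047965 to 23082615 and 22877646 to 22926544). TNFRSF10B had 1.4 and 1.95 CPM in JJN3 with DMSO and 1.71 and 2.89 with THZ1, from 27 to 52 counts per library. The JJN3 groups overlapped, and the log2 fold change of 0.48 (standard error, SE, 0.336, adjusted p = 0.237) moved between 0.05 and 0.80 as single libraries were left out, so a change of this size was not detectable with these libraries. In the libraries labelled H929, TNFRSF10B had 40 and 42.5 CPM with DMSO and 63.9 and 63.8 with THZ1. These 4 libraries lay far above JJN3, and the libraries labelled THZ1 were both above those labelled DMSO, by 1.55-fold (log2 fold change 0.64, SE 0.068, adjusted p = 3.41e-07). Part of TNFRSF10B overlaps exons of RHOBTB2 on the opposite strand over 377 bp, and under the H929 labels RHOBTB2 counts were 754 and 663 for THZ1 against 158 and 182 for DMSO. Whether counting used strand is not given in the sources used here, so reads in the shared stretch cannot be assigned to one gene, and their part in the result was not tested.

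TNFRSF10A stood at 6.99 and 4.82 CPM in JJN3 with DMSO, 4.71 and 6.45 with THZ1, 29.8 and 28.4 in the libraries labelled H929 DMSO and 33 and 33.8 in those labelled H929 THZ1. The JJN3 groups overlapped (log2 fold change -0.06, SE 0.233, adjusted p = 0.84). The libraries labelled H929 were separated by label, but by a log2 fold change of only 0.20 (SE 0.080, adjusted p = 0.03), short of the limit on the fold change. TNFRSF10A overlaps exons of 2 noncoding genes on the opposite strand over 266 and 224 bp, which had at most 220 counts in any library. The first had 215 and 220 counts under the label H929 DMSO and 121 and 129 under H929 THZ1. TNFRSF10A itself had 554 and 513, and 627 and 639. The part of shared reads in its values was not tested.

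FAS encodes the receptor of the Fas ligand and lies on the plus strand of chromosome 10 (GRCh37, 90750414 to 90775542). It had 135 and 149 CPM in JJN3 with DMSO and 108 and 125 with THZ1, and 57.8 and 57 CPM in the libraries labelled H929 DMSO against 13.2 and 14 in those labelled H929 THZ1. The 4 groups were ordered without overlap, JJN3 with DMSO highest and the libraries labelled H929 THZ1 lowest. In JJN3 the log2 fold change was -0.27 (SE 0.094, adjusted p = 0.0293), within the limit on the fold change and so not called. Between the H929 labels FAS was 4.19-fold lower with THZ1 (log2 fold change -2.07, SE 0.083, adjusted p = 1.84e-12). Its exons overlap those of ACTA2 on the opposite strand over 380 bp, and ACTA2 had 20 to 74 counts against 252 to 2909 for FAS.

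CASP8 and CFLAR both lie on the plus strand of chromosome 2 (GRCh37, 202098166 to 202226559 and 201980877 to 202041410), with 56755 bp between them. CASP8 had 79.2 and 85.9 CPM in JJN3 with DMSO and 140 and 126 with THZ1. Both libraries with THZ1 lay above both with DMSO, a 1.63-fold rise (log2 fold change 0.71, SE 0.086, adjusted p = 4.36e-05) that was called in 11 of 11 other fits, as scaling, filter, tool and libraries were changed. In the libraries labelled H929, CASP8 had 87.7 and 88 CPM with DMSO and 111 and 119 with THZ1, a difference in the same direction that did not reach the limit on the fold change (log2 fold change 0.40, SE 0.058, adjusted p = 1.23e-05). CASP8 thus stayed between 79.2 and 140 CPM in all 8 libraries. CFLAR, its inhibitor, had 71.2 and 67.5 CPM in JJN3 with DMSO and 60.4 and 59.2 with THZ1, so every library with THZ1 was lower, but the test was not passed (log2 fold change -0.20, SE 0.081, adjusted p = 0.0528). In the libraries labelled H929, CFLAR had 57.3 and 54.9 CPM with DMSO and 75.4 and 74.4 with THZ1 (log2 fold change 0.42, SE 0.063, adjusted p = 1.41e-05), short of the limit on the fold change. From 54.9 to 75.4 CPM, CFLAR had the narrowest range of the 9 genes relative to its level.

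The promoter windows of both genes are shown because CASP8 rose in JJN3 and CFLAR, on the same strand, did not. They are RefSeq sequences of the assembly GRCh38.p14, 300 bases of the plus strand that end just past the most upstream listed start, chr2:201118466-201118765 for CFLAR and chr2:201233213-201233512 for CASP8.
CFLAR: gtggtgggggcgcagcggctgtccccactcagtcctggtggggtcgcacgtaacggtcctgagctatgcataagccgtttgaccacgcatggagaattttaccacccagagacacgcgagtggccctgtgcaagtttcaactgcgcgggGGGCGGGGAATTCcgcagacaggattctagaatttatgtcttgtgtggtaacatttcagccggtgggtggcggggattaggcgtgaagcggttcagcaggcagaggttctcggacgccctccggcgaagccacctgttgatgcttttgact
CASP8: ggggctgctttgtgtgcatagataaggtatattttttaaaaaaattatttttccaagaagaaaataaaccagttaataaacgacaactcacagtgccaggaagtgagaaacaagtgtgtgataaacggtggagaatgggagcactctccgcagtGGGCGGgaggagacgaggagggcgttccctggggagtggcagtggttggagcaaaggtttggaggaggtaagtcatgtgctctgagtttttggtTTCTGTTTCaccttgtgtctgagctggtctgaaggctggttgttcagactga
Capitals mark matches, on either strand, to 4 short motifs: a kB-like motif (GGGNNNTTC), a motif like the interferon response element (ISRE-like, GAAANNGAA), the GC box (GGGCGG) and the TATA box (TATAAA). The CFLAR window holds a GC box and a kB-like match that overlap, and the CASP8 window holds a GC box and an ISRE-like match on the minus strand. Of 35116 RefSeq promoter windows of the same length, 15.5% held a kB-like match, 8.11% an ISRE-like match, 45% a GC box and 11.5% a TATA box, so a match describes these letters and no more. CFLAR has 4 listed windows and CASP8 3, and the other windows held different matches. Windows were listed for 7 of the 9 genes, 18 windows in all, and the names without one are TNFRSF10A and TNFRSF10B.

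CASP9 encodes the caspase activated from within the cell and lies on the minus strand of chromosome 1 (GRCh37, 15817327 to 15853029). It was among the genes with few reads, with 7.4 and 7.84 CPM in JJN3 with DMSO and 11.1 and 10.5 with THZ1, from 143 to 189 counts. Both libraries with THZ1 were higher (log2 fold change 0.52, SE 0.149, adjusted p = 0.0115). The call held in 5 of 11 other fits and was lost with DESeq2 (adjusted p = 0.105), with total counts as the scale (log2 fold change 0.41), with no filter (0.47) and without the first library with DMSO (0.46), the second with DMSO (0.55, adjusted p = 0.0593) or the first with THZ1 (0.48). In the libraries labelled H929, CASP9 had 19.3 and 20.4 CPM with DMSO and 15.3 and 13.6 with THZ1. There both libraries labelled THZ1 were the lower ones, by a log2 fold change of -0.45 (SE 0.106, adjusted p = 0.001), within the limit, though past it at -0.53 without the first library labelled H929 THZ1.

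The 3 IAP genes split most widely. BIRC3 and BIRC2 are neighbours on the plus strand of chromosome 11 (GRCh37, 102188215 to 102210134 and 102217942 to 102249401), 7807 bp apart, and they moved in opposite directions in both comparisons. BIRC3 had 346 and 305 CPM in JJN3 with DMSO and 197 and 256 with THZ1, and BIRC2 had 65.6 and 69 CPM with DMSO and 114 and 96.1 with THZ1. The groups did not overlap for either gene. BIRC2 rose 1.58-fold (log2 fold change 0.66, SE 0.095, adjusted p = 0.000141), and this was called in 11 of 11 other fits. BIRC3 fell by 0.51 on the log2 scale (SE 0.119, adjusted p = 0.00372), just past the limit, and the call held in 7 of 11 other fits. It was lost with DESeq2's size factors or a filter of 1 CPM (both -0.49), without the first JJN3 library with DMSO (-0.43) and without the first with THZ1 (-0.33).

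Between the H929 labels the same genes lay farther apart. BIRC3 had 225 and 187 CPM in the libraries labelled DMSO and 2.68 and 2.11 in those labelled THZ1, from 4183 and 3381 counts against 51 and 40. This was the greatest difference among the 9 genes, 85.5-fold lower (log2 fold change -6.42, SE 0.127, adjusted p = 6.27e-16). BIRC2 had 35.4 and 31.9 CPM against 118 and 127, 3.66-fold higher (log2 fold change 1.87, SE 0.071, adjusted p = 8.7e-13). Both windows of BIRC2 and the single window of BIRC3 came from the RefSeq table, and the most upstream of each is shown because this adjacent pair carries the widest contrast, chr11:102317234-102317533 for BIRC3 and chr11:102346964-102347263 for BIRC2, in GRCh38.p14 and on the plus strand.
BIRC3: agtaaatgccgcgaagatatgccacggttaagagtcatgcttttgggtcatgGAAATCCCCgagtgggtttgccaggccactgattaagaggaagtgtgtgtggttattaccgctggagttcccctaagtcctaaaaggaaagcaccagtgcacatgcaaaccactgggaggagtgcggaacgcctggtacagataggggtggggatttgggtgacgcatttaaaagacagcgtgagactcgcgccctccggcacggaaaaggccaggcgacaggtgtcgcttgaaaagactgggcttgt
BIRC2: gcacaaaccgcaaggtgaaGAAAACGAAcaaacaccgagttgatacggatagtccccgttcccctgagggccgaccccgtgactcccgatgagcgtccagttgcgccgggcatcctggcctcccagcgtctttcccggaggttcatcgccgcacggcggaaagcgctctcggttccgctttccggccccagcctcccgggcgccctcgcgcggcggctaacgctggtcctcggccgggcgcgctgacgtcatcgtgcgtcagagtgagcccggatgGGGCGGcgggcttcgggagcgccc
Capitals again mark motif matches. The BIRC3 window holds a kB-like match on the minus strand and no GC box, with 53.3% G and C. The BIRC2 window holds an ISRE-like match and, past the start, a GC box, with 68.7% G and C and no kB-like match. The windows of CFLAR and CASP8 above had 58.7% and 46.3%. No binding of a factor was measured in these files.

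XIAP lies on the plus strand of the X chromosome (GRCh37, 122993562 to 123047822). It had 27 and 21.2 CPM in JJN3 with DMSO and 22 and 22.6 with THZ1, groups that overlapped (log2 fold change -0.10, SE 0.128, adjusted p = 0.544). In the libraries labelled H929 it had 53.3 and 53.1 CPM with DMSO and 137 and 141 with THZ1, and the libraries labelled THZ1 were 2.63-fold higher (log2 fold change 1.39, SE 0.058, adjusted p = 2.88e-12). BIRC8, an intronless copy of XIAP, had 0 counts in all 8 libraries. Only uniquely mapped reads were counted, so reads that match both genes would be missing from each. How many there were was not tested.

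**Figure D2:**
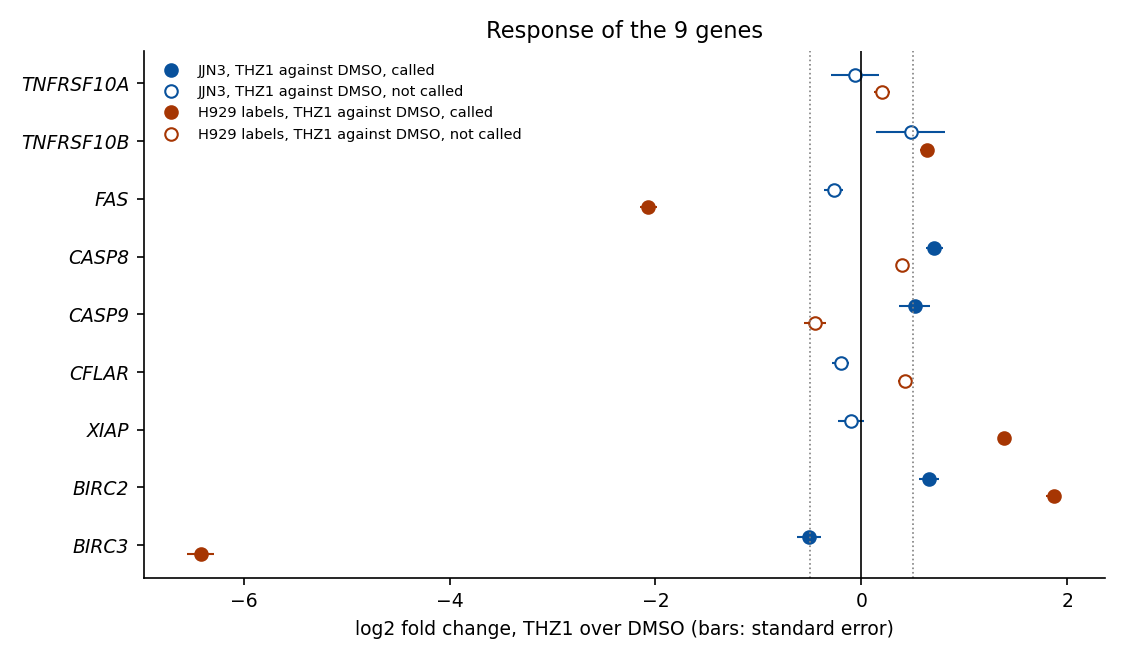
Log2 fold changes of THZ1 over DMSO with their standard errors are plotted for the 9 genes, in JJN3 (blue) and between the H929 labels (brown), filled where called and with dotted lines at the limit of 0.5. FAS, XIAP, BIRC2 and BIRC3 lie far from 0 between the H929 labels and nearer to it in JJN3. Only BIRC2 and BIRC3 are filled in both colours.

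An interaction term fitted to the 8 libraries together compared the difference between the H929 labels with the response of JJN3. Since treatment and cell source cannot be told apart under the H929 labels, it does not isolate a difference in the response to THZ1. It was called for 6 of the 9 genes, where 53.7% of the 16122 genes tested were called. The difference, H929 labels minus JJN3, was 1.50 for XIAP (SE 0.137, adjusted p = 9.32e-08) and 1.22 for BIRC2 (SE 0.126, adjusted p = 3.77e-07). It was 0.63 for CFLAR (SE 0.101, adjusted p = 4.81e-05). On the other side it was -5.90 for BIRC3 (SE 0.215), -1.79 for FAS (SE 0.128) and -0.96 for CASP9 (SE 0.174), with adjusted p-values of 2.86e-12, 4.99e-09 and 0.000161. CFLAR was itself called neither in JJN3 nor between the H929 labels, and CASP9 only in JJN3. The fold changes of both had opposite signs in these 2 comparisons. The interaction was not called for CASP8 (-0.30, SE 0.107, adjusted p = 0.0226), TNFRSF10A (0.27, SE 0.224, adjusted p = 0.319) or TNFRSF10B (0.16, SE 0.288, adjusted p = 0.676), and the wide errors of the receptors leave room for differences in either direction. Each of the 9 outcomes was the same in 14 of 14 other fits, and none changed without the second library labelled H929 DMSO, with values of -5.99 for BIRC3, -1.77 for FAS, -0.88 for CASP9, 0.63 for CFLAR, 1.19 for BIRC2 and 1.53 for XIAP. Between the H929 labels, BIRC3 was at -6.53, FAS at -2.06, XIAP at 1.41, BIRC2 at 1.81 and TNFRSF10B at 0.70 without that library.

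With DMSO alone, 7 of the 9 genes were called between the libraries labelled H929 and JJN3, where 61.5% of all genes were called. TNFRSF10B was 24.5-fold higher in the libraries labelled H929 DMSO (log2 fold change 4.62, SE 0.162, adjusted p = 4.54e-13), and TNFRSF10A 4.93-fold (2.30, SE 0.149, adjusted p = 7.28e-10). CASP9 (1.38) and XIAP (1.14) were also higher there, and FAS (-1.31) and BIRC3 (-0.66) were lower, as was BIRC2, by 2-fold. CASP8 (0.09, SE 0.077, adjusted p = 0.304) and CFLAR (-0.31, adjusted p = 0.00109) were not called. Without the second library labelled H929 DMSO the 9 outcomes were the same, with BIRC3 at -0.53. Between the libraries with THZ1, 5 of the 9 genes were called, where 63.9% of all genes were called. TNFRSF10B (4.77), XIAP (2.64) and TNFRSF10A (2.57) were higher in those labelled H929, and BIRC3 (-6.56) and FAS (-3.10) were lower. BIRC2 (0.22), CFLAR (0.32), CASP8 (-0.21) and CASP9 (0.42) had adjusted p-values of 0.000638 to 0.0256 and lay within the limit, CASP9 passing it with total counts (0.54) or without the second library labelled H929 THZ1 (0.52).

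Levels were compared between genes only as CPM per kb of the main transcript. In JJN3 with DMSO FAS stood highest at 55.3 CPM per kb and BIRC3 next at 47.3, followed by CASP8 at 31 and BIRC2 at 17.9. The other 5 genes were between 0.418 (TNFRSF10B) and 4.75 (CFLAR). In JJN3 with THZ1 CASP8 stood first at 50.1 CPM per kb, before FAS at 45.4, BIRC3 at 33 and BIRC2 at 27.9. In the libraries labelled H929 DMSO CASP8 led at 33 CPM per kb before BIRC3 at 30 and FAS at 22.4, and CFLAR was lowest at 3.84. In those labelled H929 THZ1 CASP8 led at 43.3 CPM per kb and BIRC2 followed at 32.6, XIAP was at 16.3, and BIRC3 was last at 0.349. CFLAR's main transcript is 14612 bases long, the longest of the 9, so its level per kb depends on that choice of transcript. The same holds for the places of CASP8 and FAS. The main transcript of CASP8 is 2659 bases long, where all its exons cover 7237. For FAS the length, 2563 bases against 3562 for all exons, came from a transcript marked principal. For the other genes it came from one marked canonical. The order by other lengths was not tested.

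**Figure D3:**
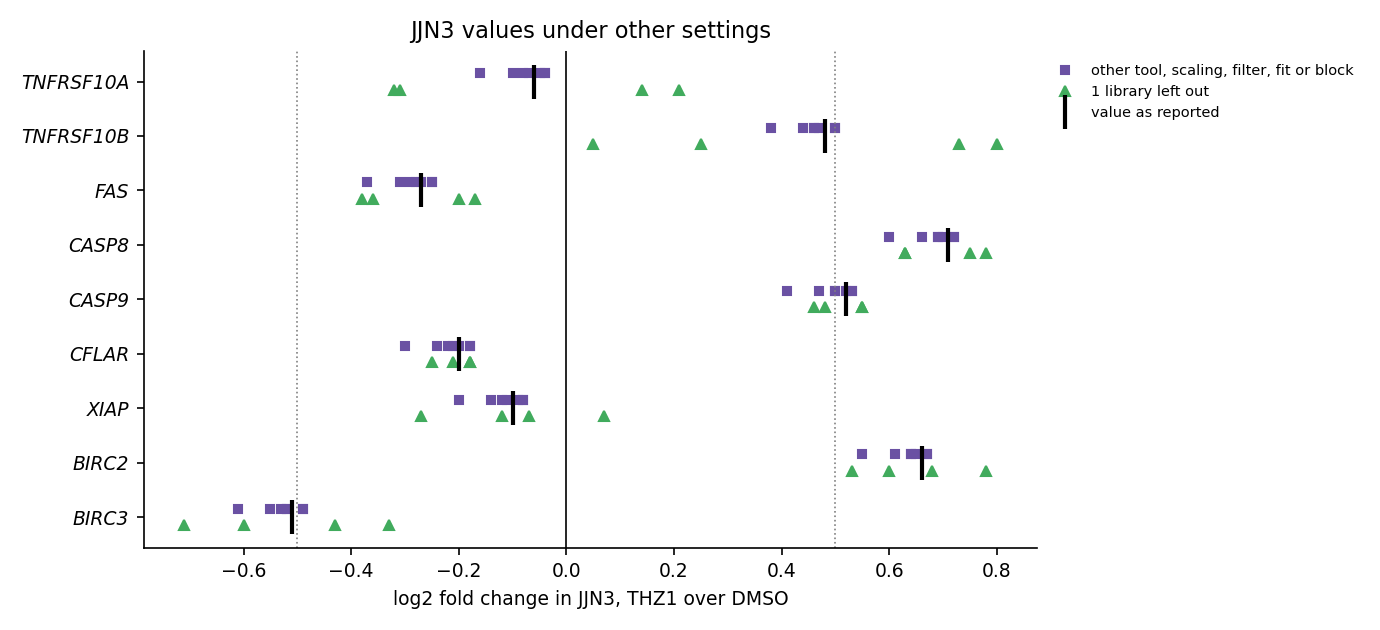
Log2 fold changes of the 9 genes in JJN3 are plotted as reported (black bars), with another tool, scaling, filter, fit or block (squares) and with 1 library left out (triangles), and dotted lines mark the limit of 0.5. All points of CASP8 and BIRC2 lie beyond the limit, those of CASP9 and BIRC3 lie on both sides of it, and those of TNFRSF10A and XIAP lie on both sides of 0.

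Around these genes, 55 other genes of the same pathway were grouped by role. In JJN3, 39 of the 55 passed the filter, of which 15 fell, 5 rose and 19 were not called, where 21.3% of all genes fell and 20.6% rose, with a median log2 fold change of -0.21 against 0.00 for all genes. Between the H929 labels 42 passed, of which 21 were lower, 7 higher and 14 not called, where 32.6% of all genes were lower and 33.1% higher, with a median of -0.53 against 0.01. The counts of each role below stand against these same shares and are a description of few genes each. The death ligands FASLG and TNF had 0 counts in all 8 libraries, and the 1 ligand gene tested, TNFSF10 (TRAIL), had 41 to 64 counts in JJN3 without a call. Under the H929 labels TNFSF10 counts were 24 and 30 for THZ1 against 280 and 279 for DMSO (log2 fold change -3.41, SE 0.180, adjusted p = 4.91e-11).

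Of the other death and decoy receptors 2 passed the filter in JJN3. TNFRSF10D, a TRAIL receptor with a truncated death domain, rose, with 164 and 211 counts after THZ1 against 117 and 103 (log2 fold change 0.96, SE 0.168, adjusted p = 0.000557), and TNFRSF21 (DR6) fell, with 145 and 251 against 362 and 326 (-0.61, SE 0.183, adjusted p = 0.0138). Between the H929 labels 4 of 5 were lower and none higher. TNFRSF10D had 496 and 445 counts with DMSO and 0 in both libraries labelled THZ1, at least 156-fold lower against a floor of 3 counts per library. TNFRSF10D thus differed in the other direction from its neighbours in the family TNFRSF10B (0.64) and TNFRSF10A (0.20) between the H929 labels.

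Among adaptors and signalling proteins of the receptor complexes 5 of 14 fell and 2 rose in JJN3. FADD, the adaptor that carries procaspase-8 to death receptors, fell, with 53 and 64 counts against 174 and 165 (log2 fold change -1.34, SE 0.185, adjusted p = 0.000103), where CASP8 rose. CYLD, a deubiquitinase of these complexes, rose (0.87, SE 0.093, adjusted p = 1.81e-05). Between the H929 labels 8 of 14 were lower and 1 higher. TRAF1, which forms complexes with TRAF2, BIRC2 and BIRC3, was lower (-2.51, SE 0.139, adjusted p = 9.37e-11), and FAIM, an inhibitor of Fas-induced death, was higher at 137 and 150 counts against 22 and 35 (2.28, SE 0.225, adjusted p = 1.2e-07).

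Of the other caspases, 3 of 7 were lower, none higher and 4 not called in JJN3, and 1 was lower, 4 higher and 2 not called between the H929 labels. CASP6, an executioner caspase, fell in JJN3 (log2 fold change -0.71, SE 0.100, adjusted p = 0.000114). CASP10, the initiator closest to CASP8, was higher under the label H929 THZ1, at 2763 and 2905 counts against 552 and 629 (2.22, SE 0.073, adjusted p = 1.91e-13), while the inflammatory caspase gene CASP1 was lower (-1.02, SE 0.152, adjusted p = 1.42e-05). Of 3 genes listed around the apoptosome, 2 fell in JJN3 and 2 were lower between the H929 labels. They include CASP8AP2 in JJN3 (-0.91, SE 0.082, adjusted p = 5.97e-06), which encodes FLASH, a protein that binds caspase-8 and takes part in histone mRNA processing and is no apoptosome subunit. CYCS, cytochrome c itself, was lower between the H929 labels (-0.67, SE 0.051, adjusted p = 4.63e-09).

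Of the other IAP genes 2 passed the filter. BIRC6, a large ubiquitin-conjugating IAP, rose in JJN3 (log2 fold change 0.80, SE 0.081, adjusted p = 1.25e-05), in the direction of BIRC2. Between the H929 labels BIRC6 was at -0.41 (adjusted p = 6.69e-06), within the limit and opposite to BIRC2. BIRC5 (survivin), a mitotic IAP, was lower between the H929 labels (-0.80, SE 0.068, adjusted p = 1.82e-08). Among the IAP antagonists 2 of 4 fell in JJN3 and 1 of 4 was lower between the H929 labels. HTRA2, a mitochondrial protease that binds IAP proteins, fell in JJN3, with 78 and 108 counts against 237 and 269 (-1.25, SE 0.169, adjusted p = 8.93e-05). Among the caspase substrates 2 of 6 fell and 1 rose in JJN3, and 3 were lower and 2 higher between the H929 labels. In both comparisons the named ones were DFFA, the inhibitor of the nuclease that cuts DNA in apoptosis, which was lower (-1.08 in JJN3 and -2.84 between the H929 labels), and ROCK1, the kinase behind membrane blebbing, which was higher (1.23 and 1.71).

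**Figure D4:**
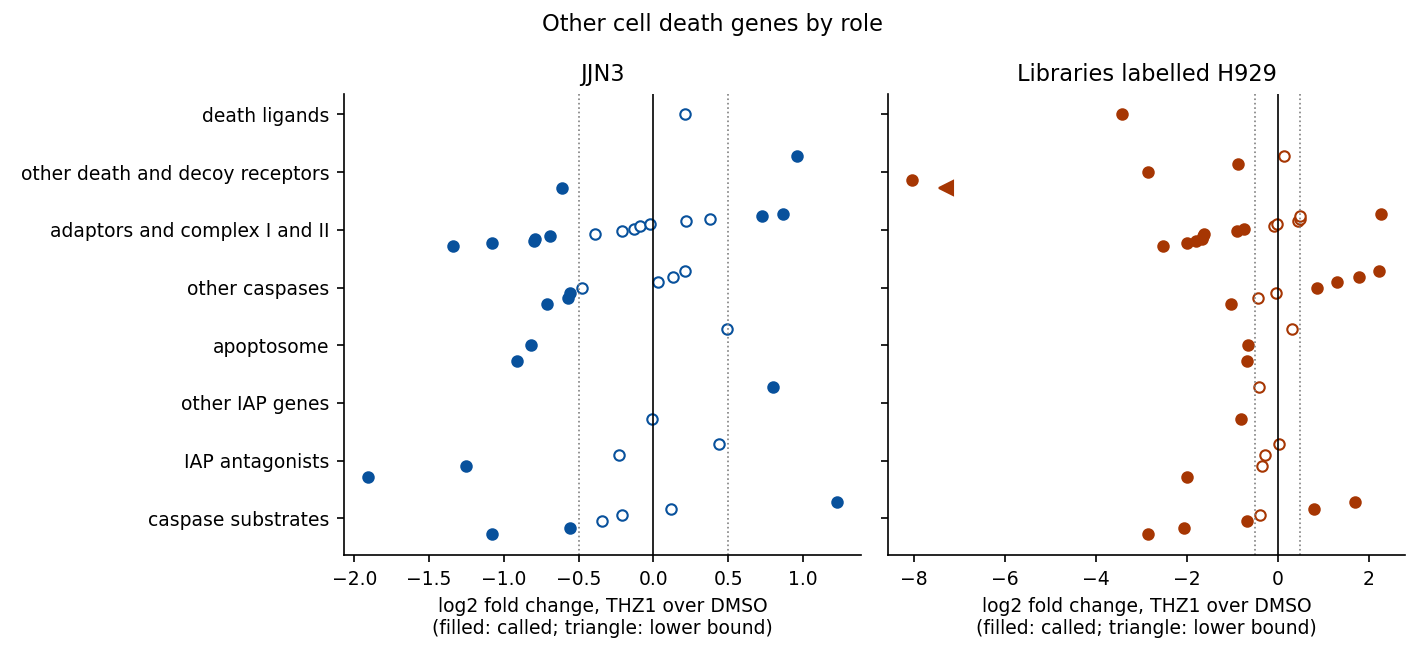
Log2 fold changes of THZ1 over DMSO are plotted for the tested genes of 8 pathway lists, a row per list, in JJN3 (left) and between the H929 labels (right, on a wider axis), filled where called, with dotted lines at the limit of 0.5. In the row of other caspases the 3 filled points in JJN3 lie left of 0 and 4 of the 5 filled points between the H929 labels lie right of it, and the triangle marks TNFRSF10D at its bound of at least 156-fold lower.

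For each member the gene with the most similar pattern was sought by Pearson's r of log2 CPM over the 8 libraries, among 9666 genes whose log2 CPM averaged 3 or more. For TNFRSF10B it was ADCY6 (r = 0.999), for TNFRSF10A MYADM (0.998), and for FAS WDR70 (0.998). CASP8 was most like LAMP2 (0.986), the lowest value of the 9, CASP9 most like ACOT9 (0.995) and CFLAR most like YAF2 (0.996). XIAP was most like ZNF687 (0.998), BIRC2 most like ASAH1 (0.996) and BIRC3 most like KIAA0922 (0.999). The 8 points fall into 4 groups of 2 libraries, so r mostly describes the order and spacing of the 4 group means. The 9 genes themselves were left out of this search.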

How the data were processed

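The authors aligned reads to hg19 with STAR 2.5.2a, counted uniquely mapped reads per Ensembl gene with featureCounts and deposited raw counts for 8 libraries. Their deposited DESeq2 tables (fold changes, p-values) were not used, except for gene symbols. The tests ran on the counts with edgeR 4.0.16 in R 4.3.3 (filterByExpr, TMM, quasi-likelihood, Benjamini-Hochberg over all genes tested), within each line over 4 libraries, and over 8 for the interaction and the comparisons between lines. The limits on p and fold follow the study. Alternatives were DESeq2 1.42.0 or its size factors, total counts, no filter or 1 CPM in 2 libraries, a joint fit, a replicate block, other fold limits and leaving out each library. Tests were tried on simulated data. The members, lists and rules were chosen with earlier results of these data known. Named were all 9 members, per list and line the called genes with the greatest rise and fall with log2 CPM averaging 1 or more, and the gene most like each member. A count of 0 allows 3 counts, 0.156 to 0.172 CPM, for counting error only. edgeR's biological coefficient of variation was 0.0432 for the H929 labels and 0.074 for JJN3. Replicate libraries differed beyond sampling noise in every group. Lengths came from GENCODE's GRCh37 annotation.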

Additional observations from a re-analysis of the deposited data

Results flagged for a closer look

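The interaction test over 8 libraries called 6 of the 9 genes, where it called 53.7% of the 16122 genes tested. For these 6 the difference between the THZ1 and DMSO labels was not the same in the libraries labelled H929 as in JJN3. The difference in log2 fold change was 1.50 for XIAP, 1.22 for BIRC2, 0.63 for CFLAR, -0.96 for CASP9, -1.79 for FAS and -5.90 for BIRC3. The libraries labelled H929 DMSO and H929 THZ1 also differed in FGFR3, MAF and light chain genes, so treatment and cell source cannot be told apart in these values. No group had enough libraries to look for a single library far from the rest.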

How the results depend on the processing

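Of the values for single genes, 573 kept their direction and side of the threshold under the alternatives, 14 became called, 19 lost their call and 6 not called changed sign. Of the counts, 133 stayed within 1.5 times and 13 did not. The number of members lower in JJN3, 1, was 0 with a filter of 1 CPM, with DESeq2's size factors and beyond a log2 fold change of 1, 2 with no limit on the fold change, and 0 to 1 with a library left out. Beyond a log2 fold change of 1, members higher in JJN3 went from 3 to 0, and pathway list genes from 15 to 5 lower and from 5 to 1 higher. With no limit, list genes higher in JJN3 went to 9. Between the H929 labels members higher went from 3 to 6 and list genes higher from 7 to 11. Members called between the groups with THZ1 went from 5 to 9. By construction these limits admit fewer or more genes. For the other changes the cause was not tested. The sign turned for TNFRSF10A in JJN3 without the first DMSO library (0.21) or the first THZ1 library (0.14), for XIAP without the first DMSO library (0.07), and in the interaction for TNFRSF10A without the first JJN3 DMSO library (-0.01) and for TNFRSF10B without the second (-0.08) or without the first JJN3 THZ1 library (-0.14). Leaving out each library gave ranges of -0.32 to 0.21 for TNFRSF10A and -0.27 to 0.07 for XIAP in JJN3, and of -0.01 to 0.54 for TNFRSF10A and -0.14 to 0.61 for TNFRSF10B in the interaction.

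Replicate numbers were shared between groups, but same-numbered libraries hardly deviated together (r = 0.013 in JJN3 and -0.039 between the H929 labels, over 13310 genes), so the numbers were not taken to pair the samples. With the replicate block BIRC3 between the DMSO groups moved from -0.66 to -0.48 (adjusted p = 0.00491) and lost its call, and no other member's call changed. Scaling by total counts moved the median of all genes in JJN3 to -0.10 and the share of rises among called genes from 49.2% to 39.3%. In the interaction the median went from 0.04 to 0.18, with the same 6 members called. TNFRSF10B had the fewest counts of the 9 genes in JJN3, 27 to 52 per library, and the widest standard error there, 0.336.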
